A study of Mus musculus with 35 samples.

Results

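The T-cell receptor complex and T-cell lineage genes examined here are 10 genes, chosen by symbol: the CD3 subunits Cd3d, Cd3e and Cd3g, the zeta chain Cd247, the receptor constant regions Trac and Trdc, the coreceptors Cd4, Cd8a and Cd8b1, and the regulatory factor Foxp3. All 10 were rows of the 36106-gene table, and each was followed in every one of 35 mouse skin libraries. Cd4 and Foxp3 were higher in radiated than in control skin at weeks 3 and 4, Trdc was higher at week 4, and Cd3e was lower at week 4. Trdc was also called higher at week 3, but that call was lost in 8 of 14 alternative fits, among them the one with the mouse as a block (adjusted p 0.127).

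Every T-cell receptor is a pair of antigen-binding chains, alpha with beta or gamma with delta, held at the cell surface by the CD3 gamma, delta and epsilon subunits and the zeta chain, which carry the signal into the cell. Alpha-beta T cells carry the coreceptor CD4, which reads MHC class II, or CD8, an alpha-beta or alpha-alpha dimer that reads MHC class I. FOXP3 is the factor that defines regulatory T cells, many of which live in the dermis around hair follicles. Mouse epidermis holds a resident population of gamma-delta T cells with branched processes, the dendritic epidermal T cells, whose receptor is nearly the same from cell to cell.

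Bulk RNA-seq was made from skin of 19 female C57BL/6J mice, aged 10 weeks. Sham mice received no radiation (n = 3 libraries), and the labels give no week for them. The same sham libraries were the reference at every week, so a difference in biopsy time cannot be told apart in those comparisons. The other mice were irradiated once on the left flank, with 25 Gy given at 3.6 Gy/min over 420 seconds, and were shaved there afterwards. Radiated and control skin each gave 4 libraries at every week from 1 to 4. The labels place the biopsies at the radiated site and do not say where control skin was taken. A control library and a radiated library of the same number at a week were taken to come from 1 mouse. The labels give no other genotype or agent, and animals were not described as pooled. Libraries held 17362853 to 28487885 estimated counts. Levels are given as CPM, counts divided by library size and set to a common depth, with library sizes scaled by the TMM method, and 3 counts corresponded to 0.105 to 0.173 CPM before that scaling. In bulk skin, fewer cells of a type and less RNA per cell cannot be told apart. Same-group libraries were read as separate animals, so the p-values measure the spread between these animals.

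**Figure D1:**
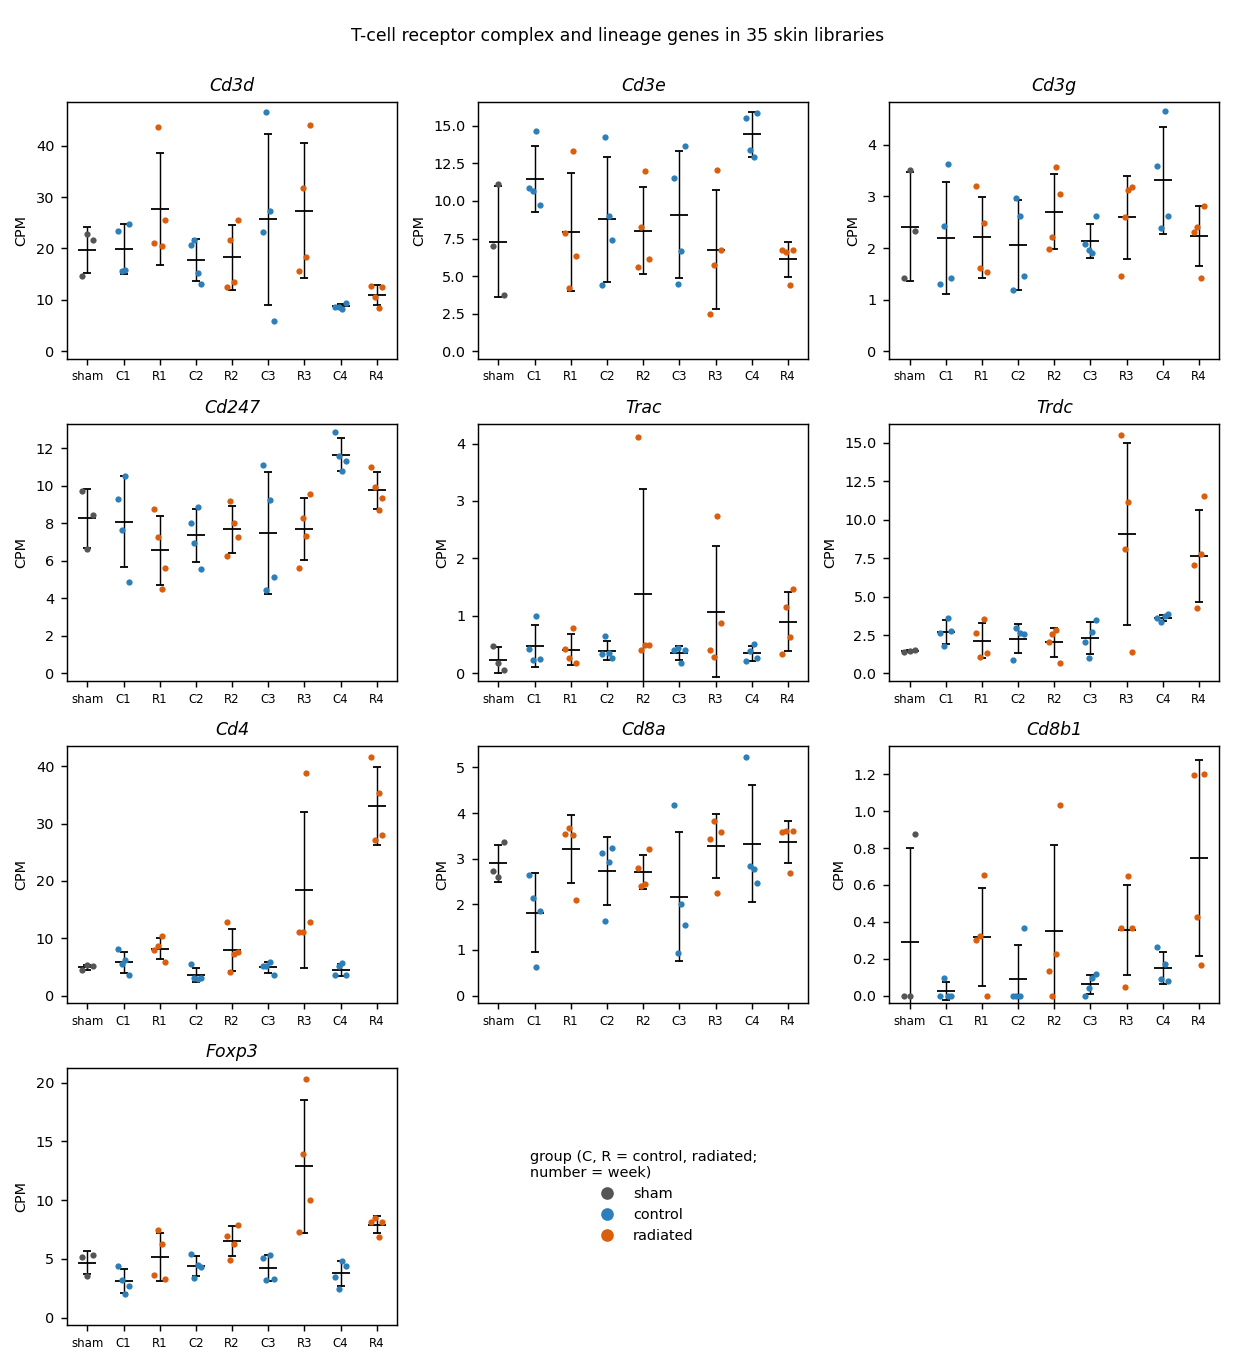
Level of each of the 10 genes (CPM, linear axis) in the 35 libraries, by group: sham, then control (C) and radiated (R) skin at weeks 1 to 4. Points are libraries, and the bar is the group mean with its SD, cut off just below 0. Cd4 in radiated skin at week 4 lies between 27.2 and 41.6 CPM, above every control and sham library.

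Differences were tested with edgeR's quasi-likelihood F test, with Benjamini-Hochberg adjustment over all genes tested, and a gene was called at an adjusted p under 0.05. At week 1, 8 of the 10 genes passed the filter on low counts and none was called, against 0% of all tested genes. By DESeq2 the count was also 0, beside 2.24% of all genes, and 0 members had an edgeR unadjusted p under 0.05, beside 14.1%. At week 2, 8 were tested and 0 called by edgeR, against 0.00577% of all genes, and 0 by DESeq2, against 4.12%. There 2 members (Cd4 and Foxp3) had an edgeR unadjusted p under 0.05, beside 13.8% of all genes. With the mouse as a block, 641 of 17345 genes were called at week 2 in place of 1, which is 3.7%, and still 0 members. Cd4 was then 1.06 higher on the log2 scale (SE 0.24) with an edgeR adjusted p of 0.0594, in place of 0.214, and Cd4 was higher in the radiated library of 4 of 4 pairs. At week 3, 3 of 8 tested members were called, all of them higher in radiated skin, beside 27.2% of all genes. At week 4, 5 of 9 tested members were called, 4 higher and 1 lower, beside 48.4%. The members' counts were thus read against broad change: 13.6% of genes were called higher and 13.6% lower at week 3, and 24.2% and 24.2% at week 4. Scaling by total counts moved the median of all genes at week 3 up by 0.24 on the log2 scale and split its calls into 4054 higher and 1270 lower, in place of 2408 and 2397. Cd8b1 passed the filter in neither week, and Trac only at week 4.

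**Figure D2:**
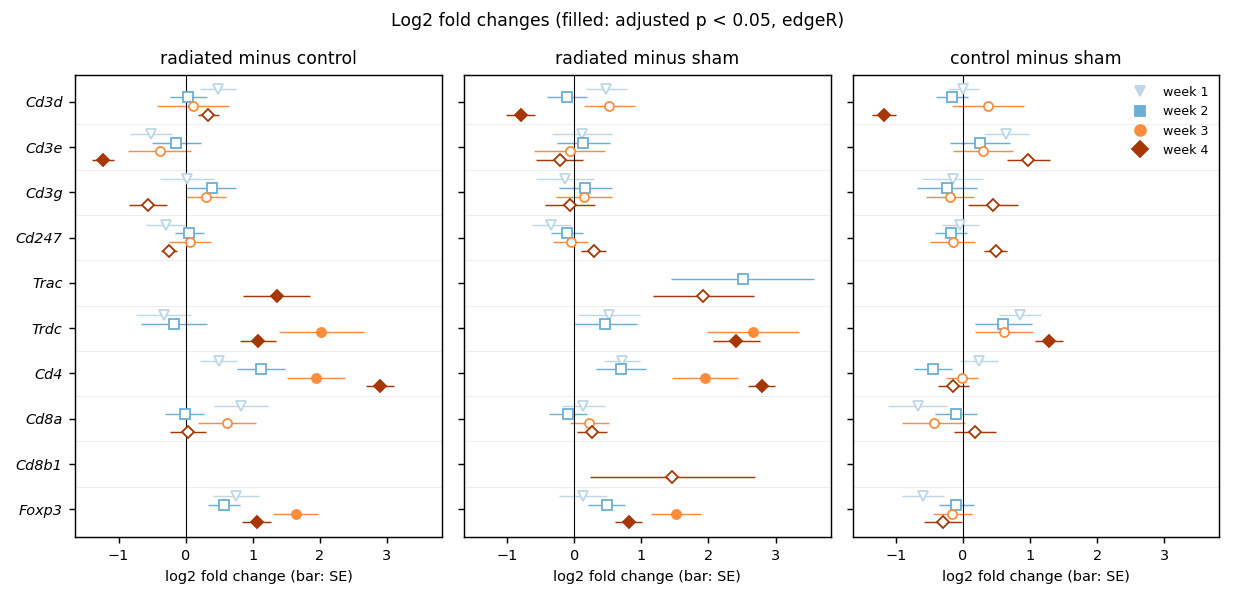
Log2 fold changes of the members, with SE as bars, for radiated minus control skin, radiated minus sham and control minus sham, at weeks 1 to 4 (marker shape). Filled markers are called at an adjusted p under 0.05 by edgeR, and genes that did not pass the low-count filter have no marker. Cd4 is filled at weeks 3 and 4 to the right of 0 in the first 2 panels, and Cd3e is filled to the left of 0 at week 4 in the first panel.

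The 3 CD3 subunit genes did not move as one. At week 4, Cd3e, the epsilon subunit that pairs with both delta and gamma, was lower in radiated skin, whereas neither Cd3d nor Cd3g, the delta and gamma subunits, was called at any week in radiated against control skin. The 3 genes lie together on chromosome 9 (GRCm38, GENCODE M21): Cd3g at 44969572-44980431 on the minus strand, Cd3d at 44981786-44987339 on the plus strand and Cd3e at 44998740-45009627 on the minus strand. The starts of Cd3g and Cd3d face away from each other, 1355 bases apart. The sequences upstream are shown because these neighbours differed in their week 4 values.

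The 250 bases before each RefSeq start (GRCm38.p6) are written 5′ to 3′ on the gene's own strand, with the start just after the last base. They span chr9:45009612-45009861 (minus strand) for Cd3e, chr9:44981536-44981785 (plus strand) for Cd3d and chr9:44980432-44980681 (minus strand) for Cd3g. Capitals mark matches on either strand to 5 short motifs known from T-cell promoters and enhancers: AGGAAG of the ETS factors, TGTGGT of the RUNX factors, AGATAA of the Gata3 family, CAGGTG of the E proteins, and TGGAAA of the NFAT factors. No matches overlapped in the stretches shown.
Cd3e: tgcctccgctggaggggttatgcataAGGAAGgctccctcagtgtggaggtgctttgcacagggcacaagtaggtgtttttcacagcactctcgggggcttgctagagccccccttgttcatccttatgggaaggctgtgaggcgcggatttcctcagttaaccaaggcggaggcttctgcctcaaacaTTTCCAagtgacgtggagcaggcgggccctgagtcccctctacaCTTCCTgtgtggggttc
Cd3d: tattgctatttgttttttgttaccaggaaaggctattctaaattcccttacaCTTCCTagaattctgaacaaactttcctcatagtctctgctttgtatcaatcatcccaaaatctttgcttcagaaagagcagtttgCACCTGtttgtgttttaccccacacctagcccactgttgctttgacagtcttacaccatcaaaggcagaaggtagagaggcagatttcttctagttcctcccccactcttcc
Cd3g: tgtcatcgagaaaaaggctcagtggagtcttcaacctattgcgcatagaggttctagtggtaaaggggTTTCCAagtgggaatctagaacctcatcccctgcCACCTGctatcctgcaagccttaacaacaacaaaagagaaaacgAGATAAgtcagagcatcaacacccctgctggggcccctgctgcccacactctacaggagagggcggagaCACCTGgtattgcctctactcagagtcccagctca

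The Cd3e stretch held 2 matches to AGGAAG and 1 to TGGAAA, the Cd3d stretch 1 to AGGAAG and 1 to CAGGTG, and the Cd3g stretch 2 to CAGGTG, 1 to AGATAA and 1 to TGGAAA. No match was shared by all 3 genes. Of 32851 promoters of the same length, 29.48% held AGGAAG, 14.05% TGTGGT, 9.988% AGATAA, 17.22% CAGGTG and 18.58% TGGAAA, so these letters are common. A match is a description of the letters only. RefSeq upstream sequence was matched for 6 of the 10 members; Cd4, Cd8b1, Trdc and Trac had no entry.

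Cd3e stood at 15.6, 13.4, 12.9 and 15.9 CPM in the control libraries of week 4 and at 6.74, 6.63, 4.40 and 6.73 CPM in the radiated ones. Every radiated library was thus below every control library. The log2 fold change was -1.23 (SE 0.17, n = 4 per group), with an edgeR adjusted p of 0.000244. The control group of week 4 (14.4 ± 1.49 CPM, SD) had the highest Cd3e mean of the 9 groups, and the radiated group of week 4 (6.13 ± 1.15) had the lowest. Between them came control weeks 1 (11.5 ± 2.18), 3 (9.08 ± 4.23) and 2 (8.77 ± 4.13), radiated weeks 2 (8.02 ± 2.90) and 1 (7.95 ± 3.91), sham (7.29 ± 3.70) and radiated week 3 (6.77 ± 3.97). In that order, only the step from control week 4 to control week 1 exceeded the larger SD of the neighbours. Against sham skin, radiated skin of week 4 had a Cd3e log2 fold change of -0.22 (edgeR adjusted p 0.695) with overlapping libraries, and control skin one of 0.97 (adjusted p 0.129) with every library above the sham ones. At week 4 the summed level of 6 keratinocyte genes was also lower in radiated skin, at 11510 to 16230 CPM. It was 20990 to 23510 CPM in control skin of week 4, the highest median of the 9 groups. Of the 6 genes, 5 were called, 2 higher and 3 lower, beside 48.4% of all genes. At weeks 1 and 2 the median sum was instead higher in radiated skin (19450 and 20400 against 16660 and 17620 CPM), where the Cd3e mean was lower. The part of epithelium in the Cd3e difference was not tested. At weeks 1, 2 and 3 the Cd3e log2 fold changes were -0.52, -0.14 and -0.39, none of them called. Cd3e shares 135 exon bases with the opposite-strand gene Gm48719, and the strand setting of the counting is not given in the sources used here.

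Cd3d was at 8.68, 8.71, 8.20 and 9.34 CPM in control skin of week 4 and at 12.6, 10.6, 8.34 and 12.4 CPM in radiated skin, and the groups overlapped. Its week 4 log2 fold change of 0.34 (SE 0.15) had an edgeR adjusted p of 0.096. Without radiated replicate 3, the library at 8.34 CPM, the value was 0.46 with an adjusted p of 0.0138. Both week 4 groups (control 8.73 ± 0.47 CPM, radiated 11.0 ± 2.00 CPM) were below the means of the other 7 groups, which ran from 17.7 to 27.7 CPM. Cd3d thus had its lowest control mean at the week at which Cd3e had its highest. Cd3g ranged from 1.19 to 4.66 CPM over the 35 libraries, its 9 group means from 2.06 to 3.31 CPM, and no neighbouring pair of groups in that order differed by more than the larger SD. The Cd3g log2 fold changes were 0.02, 0.39, 0.30 and -0.56 at weeks 1 to 4, with an adjusted p of 0.134 at week 4.

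Cd247 encodes the zeta chain, which carries most of the receptor's signalling motifs (chromosome 1, 165788681-165877277, plus strand). It was not called at any week, with log2 fold changes of -0.30, 0.05, 0.07 and -0.25 and a week 4 adjusted p of 0.124 by edgeR. Its level was 11.6 ± 0.88 CPM in control skin of week 4, the highest of the 9 group means, and 9.75 ± 0.97 CPM in radiated skin of that week. Cd247 shares 3007 exon bases with Pou2f1 on the opposite strand, a broadly expressed transcription factor gene at group means of 60.0 to 92.5 CPM, so its counts could not be separated from that gene with certainty.

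The receptor constant regions lie together on chromosome 14. Trdc (54142851-54148868, plus strand) encodes the constant part of the delta chain, and Trac (54220521-54224206, plus strand) that of the alpha chain. Trdc was called higher in radiated skin at week 4 and, less stably, at week 3, while the gamma constant region Trgc1 and the variable segment Trdv4 were lower at week 4. Another gamma constant region, Trgc2, was not called at week 4. Trac rested on few counts in nearly every library.

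Trdc in radiated skin of week 3 was at 15.5, 8.11, 11.2 and 1.43 CPM, against 2.02, 0.983, 2.69 and 3.48 CPM in control skin. Radiated replicates 1, 2 and 3 were above all 4 controls, and replicate 4 lay among them. The log2 fold change was 2.02 (SE 0.63), with an edgeR adjusted p of 0.0411. With the mouse as a block, the value was 1.87 with an adjusted p of 0.127, and 21.1% of all genes were then called. The call was also lost when any 1 library other than radiated replicate 4 was left out (adjusted p 0.0592 to 0.0981), and without radiated replicate 4 it stood at 2.38 with an adjusted p of 0.00383.

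At week 4 Trdc was at 7.04, 4.23, 7.79 and 11.6 CPM in radiated skin and at 3.60, 3.36, 3.71 and 3.84 CPM in control skin, so the groups did not overlap. The log2 fold change was 1.08 (SE 0.27), with an edgeR adjusted p of 0.00864. The call was kept in 13 of 14 alternatives and lost with 1 fit of all 35 libraries (1.07, adjusted p 0.0842). Over the 9 groups, the Trdc means in falling order were 9.06 ± 5.92 CPM (radiated week 3), 7.65 ± 3.02 (radiated week 4), 3.63 ± 0.21 (control week 4), 2.69 ± 0.76 (control week 1), 2.30 ± 1.06 (control week 3), 2.27 ± 0.93 (control week 2), 2.13 ± 1.15 (radiated week 1), 2.03 ± 0.96 (radiated week 2) and 1.48 ± 0.07 (sham). The 2 radiated groups at the top did not differ beyond their spread, and both steps around control week 4 exceeded the larger SD. Trdc shares 207 exon bases with the opposite-strand segment Trdv5, which reached 0.293 ± 0.286 CPM in radiated skin of week 4, and 96 with Gm43434.

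Trac had 1 to 93 counts per library. At week 4 it was at 0.341, 1.16, 0.628 and 1.47 CPM in radiated skin and at 0.212, 0.398, 0.512 and 0.269 CPM in control skin. The groups overlapped, since radiated replicate 1 lay among the controls. Its log2 fold change was 1.36 (SE 0.50) with an edgeR adjusted p of 0.0479. With the mouse as a block it was 1.29 with an adjusted p of 0.0711, when 42.7% of all genes were called. The call ended in 6 of 8 fits that left out 1 library, with adjusted p of 0.0525 to 0.142, and stayed without radiated replicate 1 or radiated replicate 3. In radiated skin of week 2, replicate 1 stood at 4.11 CPM while the other 3 lay between 0.409 and 0.496 CPM.

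The other receptor chain genes were taken from a list of 17, of which 11 were in the table and the 6 Tcrg-named symbols were not analysed here. At week 3, 2 passed the filter and 0 were called. At week 4, 2 of 6 tested were called, both lower, beside 48.4% of all genes, and their median log2 fold change was -0.63 beside 0.02 for all genes. Trgc1, a gamma constant region, was at 1.02, 0.815, 0.251 and 0.669 CPM in radiated skin of week 4 and at 3.39, 1.95, 1.71 and 2.19 CPM in control skin. Its log2 fold change was -1.72 (SE 0.40), with an edgeR adjusted p of 0.0059. Trgc2 had the opposite sign, at 0.838 ± 0.392 CPM in radiated and 0.586 ± 0.186 CPM in control skin of week 4, a log2 fold change of 0.53 (SE 0.43) with an adjusted p of 0.339. Trgc1 and Trgc2 are close copies, so reads may have been divided among them. Trdv4, the delta variable segment used by dendritic epidermal T cells, was at 0.171, 0.427, 0.461 and 0.491 CPM against 0.741, 1.73, 1.196 and 0.692 CPM in control skin. Its log2 fold change was -1.47 (SE 0.43), with an adjusted p of 0.0181. Both genes were lower in every radiated library than in every control library of weeks 3 and 4, and at week 3, where neither passed the filter, Trgc1 was at 0.0457, 0.186, 0.267 and 0.046 CPM in radiated skin, which is 1 to 7 counts per library. Sham libraries overlapped the radiated ones of both weeks, at 0.258 to 1.95 CPM for Trgc1 and 0 to 1.28 CPM for Trdv4, and at week 4 neither gene was called against sham (edgeR adjusted p 0.573 and 0.418). The Trgc1 mean of control skin at week 4 (2.31 CPM) was the highest of the 9 groups. Trbc2, a beta constant region, was not called at either week (log2 fold changes 0.03 and -0.58). The joining segment Trdj1 had 21, 20, 18 and 1 counts in radiated skin of week 3 and 0 counts in the 4 controls, and it did not pass the filter.

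**Figure D3:**
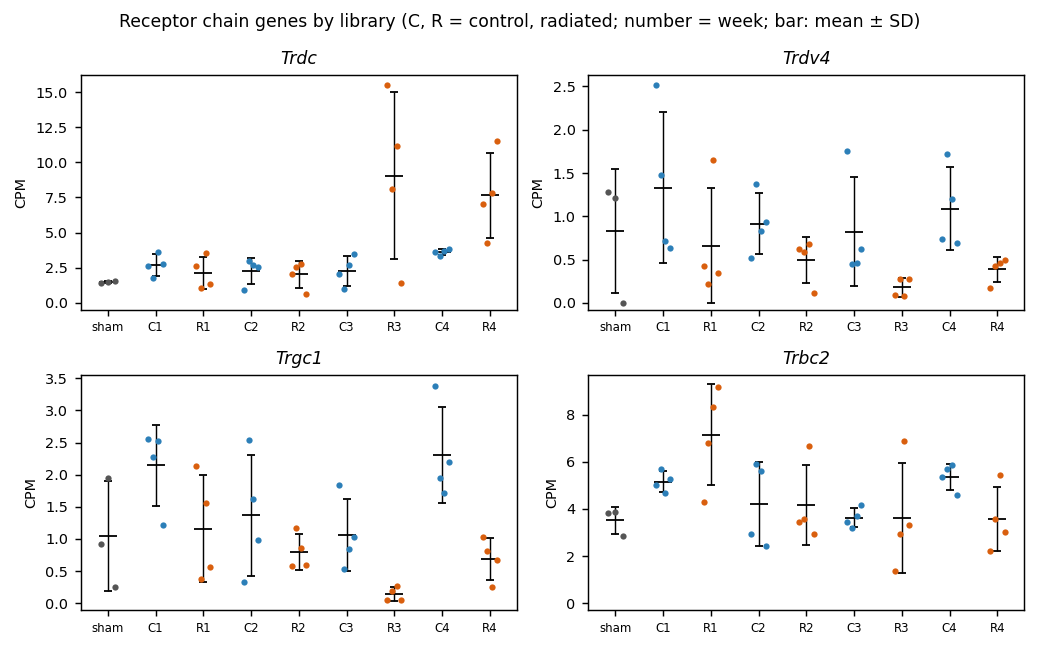
Levels (CPM, linear axes) of the delta constant region Trdc, the delta variable segment Trdv4, the gamma constant region Trgc1 and the beta constant region Trbc2 in the 35 libraries, by group (C control, R radiated, number the week). Points are libraries and bars are mean and SD, cut off just below 0. In radiated skin of weeks 3 and 4 Trdc has its 2 highest group means, whereas every Trgc1 and Trdv4 library of those groups lies below the controls of its week.

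Cd4 had the largest log2 fold change of the tested members at week 4. It encodes the coreceptor of helper and regulatory T cells (chromosome 6, 124864692-124888221, minus strand), and in mice it is also found on some myeloid cells. In control skin of week 4 it was at 3.60, 5.22, 5.59 and 3.50 CPM, and in radiated skin at 41.6, 27.2, 35.4 and 28.1 CPM. The lowest radiated library was several times the highest control. The log2 fold change was 2.89 (SE 0.21), with an edgeR adjusted p of 6.53e-06.

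At week 3 Cd4 was at 11.0, 11.1, 38.8 and 12.8 CPM in radiated skin and at 5.13, 5.08, 5.86 and 3.54 CPM in control skin, again with no overlap. Radiated replicate 3 stood far above the other 3. The log2 fold change was 1.94 (SE 0.43), with an adjusted p of 0.011 by edgeR. Without radiated replicate 3 it was 1.27 with an adjusted p of 0.00528. Ordered by mean, the 9 groups ran from radiated week 4 (33.1 ± 6.78 CPM) and week 3 (18.5 ± 13.6) through radiated weeks 1 (8.16 ± 1.84) and 2 (7.95 ± 3.66), control week 1 (5.83 ± 1.84), sham (4.92 ± 0.45), control week 3 (4.90 ± 0.97) and control week 4 (4.48 ± 1.09) to control week 2 (3.64 ± 1.22). In that order, only the step from radiated week 4 to radiated week 3 exceeded the larger SD of the neighbours.

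Markers of macrophages, other leukocytes, fibroblasts and mast cells were higher in radiated skin of week 4, as Cd4 was. All 9 listed macrophage genes were called higher in radiated skin at week 4 and 5 of 9 at week 3. Their summed level was 1414 to 2037 CPM in radiated and 213 to 346 CPM in control skin at week 4, and 1109 to 2835 against 379 to 1202 CPM at week 3. The 5 pan-leukocyte genes, Ptprc among them, summed to 423 to 605 CPM in radiated and 100 to 123 CPM in control skin at week 4, and all 5 were called higher. Fibroblast and mast cell markers were higher as well. The 5 fibroblast genes summed to 18210 to 30900 CPM in radiated and 1703 to 3283 CPM in control skin at week 4, where all 5 were called higher, and to 6905 to 13920 against 1608 to 8633 CPM at week 3, where 1 was. The 6 mast cell genes summed to 96.8 to 137 CPM in radiated and 35.1 to 41.4 CPM in control skin at week 4, and 5 were called higher at both weeks. Skeletal muscle genes went the other way, with 4 of 5 called lower at both weeks. With the mouse as a block 1 was called at week 4, beside 42.7% of all genes. Their sums were 879 to 2063 against 1130 to 17300 CPM at week 4. The unpaired counts above stand beside 27.2% of all genes called at week 3 and 48.4% at week 4. No gene of these 5 lists was at 0 throughout a group at weeks 3 and 4. At week 2, where no gene of these lists was called by the unpaired edgeR test, 8 of 9 macrophage genes and 4 of 5 pan-leukocyte genes were called higher with the mouse as a block, beside 3.7% of all genes. The part of these cells in the Cd4 counts was not tested.

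CD8 gave no call at any week. Cd8a, the alpha chain (chromosome 6, 71373427-71379173, plus strand), was at 3.58, 3.61, 2.68 and 3.61 CPM in radiated and at 5.24, 2.83, 2.78 and 2.46 CPM in control skin of week 4. Its log2 fold changes were 0.83, -0.01, 0.62 and 0.03 at weeks 1 to 4, with edgeR adjusted p of 0.386 at week 1 and 0.924 at week 4. Cd8a is also carried by some dendritic cells and by resident lymphocytes as an alpha-alpha dimer. Cd8b1, the beta chain that marks conventional CD8 T cells (71322788-71337494, plus strand), had 0 counts in 11 of 35 libraries, at most 3 counts in 19, and never more than 28. In radiated skin of week 4 it had 28, 11, 4 and 27 counts and in control skin 5, 2, 4 and 2 counts, and the groups overlapped at 4 counts. It was tested against control skin in no week.

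Foxp3 lies on chromosome X (7573644-7595245, plus strand), and rose in radiated skin at weeks 3 and 4. At week 3 it was at 7.31, 13.9, 20.3 and 9.99 CPM in radiated skin and at 5.04, 3.23, 5.34 and 3.25 CPM in control skin. The groups did not overlap, and the log2 fold change was 1.64 (SE 0.34) with an edgeR adjusted p of 0.008. At week 4 it was at 8.15, 8.49, 6.83 and 8.12 CPM in radiated and at 3.49, 2.43, 4.83 and 4.42 CPM in control skin. There too no library overlapped, and the log2 fold change was 1.06 (SE 0.22) with an adjusted p of 0.00271. The radiated spread was wide at week 3 (12.9 ± 5.66 CPM) and narrow at week 4 (7.90 ± 0.73 CPM).

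The other Foxp3 group means fell from 6.51 ± 1.26 CPM in radiated skin of week 2 and 5.16 ± 2.01 at week 1 through sham (4.66 ± 0.97) to the controls of weeks 2 (4.38 ± 0.83), 3 (4.22 ± 1.13), 4 (3.79 ± 1.07) and 1 (3.09 ± 1.02). Of the neighbouring steps in the order of all 9 groups, only that from radiated week 4 to radiated week 2 exceeded the larger SD. Foxp3 shares 590 exon bases with Ccdc22 and 266 with Ppp1r3f on the opposite strand, and 853 with the same-strand RNA Flicr. Ccdc22 was at 12.1 ± 1.01 CPM in radiated and 7.84 ± 0.97 CPM in control skin of week 3, and at 9.24 ± 0.65 and 7.68 ± 0.84 CPM at week 4; its part in the Foxp3 counts was not tested.

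Ratios within a library compare members, and scaling between libraries enters only through the small value added to each CPM. For 4 ratios at weeks 3 and 4, the log2 ratio of CPM + 0.1 was compared between 4 radiated and 4 control libraries by a two-sided exact permutation test, whose smallest possible p is 0.0286, with adjustment over the 8 tests. Cd4 to Cd3e was 2.41 ± 0.47 in radiated and -1.69 ± 0.49 in control skin at week 4, a difference of 4.11, and 2.18 higher at week 3. Foxp3 to Cd3e was higher by 2.02 at week 3 (1.02 ± 0.44 against -0.997 ± 0.79) and by 2.32 at week 4 (0.38 ± 0.17 against -1.94 ± 0.43). Cd8a to Cd4 was -3.24 ± 0.40 in radiated and -0.45 ± 0.69 in control skin at week 4. Each of these 5 had an exact permutation p of 0.0286 and an adjusted p of 0.0457, with all 4 radiated libraries on one side of all 4 controls. At week 4 the ratios to Cd3e could not have come out otherwise, since Cd4 and Foxp3 were higher and Cd3e lower with no overlap, so they describe those separations again. A further adjustment, chosen after the values were seen, left out these week 4 ratios to Cd3e and covered the other 6. The remaining 3 then had an adjusted exact permutation p of 0.0571 and did not pass. Of these, Cd8a to Cd4 at week 4 was also bound to separate. Cd8a stayed within 2.46 to 5.24 CPM in both groups, while Cd4 was at 27.2 to 41.6 against 3.50 to 5.59 CPM. That ratio describes the Cd4 separation again. Cd8a to Cd4 at week 3 differed by -0.94 (adjusted p 0.343, exact). Trdc to Trac, which sets the delta chain beside the alpha chain, differed by 0.71 at week 3 and by -0.08 at week 4 (adjusted exact permutation p 0.653 and 0.914), less than the SD within the radiated group (2.03 and 0.95). A paired test, with exact sign flips within the 4 mice of a week, cannot go below p = 0.125, and no ratio passed it.

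A change over the weeks in the gap between radiated and control skin was tested as the week by radiation interaction over the 32 libraries of both arms, where all 10 members passed the filter. Cd4 alone was called, with an edgeR adjusted p of 0.00625, beside 15.6% of all genes. Without the libraries numbered 1 the Cd4 adjusted p was 0.0535, and without each other number it was 0.019 to 0.0427. Trdc was not called, with an adjusted p of 0.0538. It was 0.0239 without the libraries numbered 4, 0.0441 with total-count scaling and 0.0171 by DESeq2's likelihood ratio test, but 0.139 with the mouse as a block and 0.251, 0.236 and 0.23 without the libraries numbered 1, 2 and 3. The adjusted p of Foxp3 was 0.231 and that of Cd3e 0.46. The lower Cd3e of radiated against control skin at week 4 was therefore not shown to differ from its differences at the other weeks. Between neighbouring weeks, no member was called: 0 of 10 from week 1 to 2 (0% of all genes), 0 of 10 from week 2 to 3 (6.9%) and 0 of 10 from week 3 to 4 (0.419%). The counts at an edgeR unadjusted p under 0.05 were 0, 2 (Trdc and Foxp3) and 0, beside 6.7%, 22.7% and 13.9% of all genes. DESeq2 called 0, 1 and 0, beside 0.0465%, 10.2% and 2.1%. The Cd4 difference grew by 0.63, 0.81 and 0.98 on the log2 scale over the 3 steps, with SE of 0.51, 0.51 and 0.50. No single step passed the test.

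Against skin of sham mice, Cd4, Trdc and Foxp3 were again the members that rose. The same 3 sham libraries and the same radiated and control libraries enter several comparisons, so these values are not independent of those above. At weeks 1 and 2, 0 of 8 and 0 of 9 tested members were called by edgeR, beside 1.75% and 5.06% of all genes, and 0 by DESeq2, beside 6.78% and 13.7%. At each week 1 member had an edgeR unadjusted p under 0.05, beside 16.6% and 23.6% of all genes. At week 3, 3 of 8 were called, beside 18.2%: Cd4 by 1.95 (SE 0.49, adjusted p 0.029), Trdc by 2.66 (SE 0.69, 0.0304) and Foxp3 by 1.52 (SE 0.37, 0.0262). All 3 calls ended when any 1 of the sham libraries was left out, with adjusted p of 0.0663 to 0.101. The Trdc call also ended without radiated replicate 1, 2 or 3 (0.0567 to 0.0649), and that of Foxp3 without radiated replicate 2 (0.059). At week 4, 4 of 10 were called, beside 26.7%: Cd4 by 2.79 (SE 0.21, adjusted p 0.000143) and Trdc by 2.42 (SE 0.35, 0.00183) kept their calls under each of 13 alternatives, while Foxp3 by 0.81 (SE 0.20, 0.019) and Cd3d by -0.80 (SE 0.22, 0.0268) did not. The Foxp3 call ended without sham replicate 2, radiated replicate 1, radiated replicate 2 or radiated replicate 4 (adjusted p 0.0502 to 0.0565). That of Cd3d ended without sham replicate 2, sham replicate 3 or radiated replicate 2 (0.0644 to 0.0921). With the replicate number as a block, although it joins no animals of these 2 groups, 2 of 10 were called, beside 17.2%. Markers of other cells differed between these groups too. The 9 macrophage genes summed to 217 to 439 CPM in sham skin, below every radiated library of weeks 3 and 4, and all 9 were called higher at both weeks. The 5 fibroblast genes summed to 3461 to 8023 CPM in sham skin, below radiated skin of week 4 and overlapping that of week 3. The 7 genes of the growing hair follicle summed to 2086 to 33150 CPM in sham skin, 11.4 to 1077 CPM in radiated skin of week 3 and 21.5 to 5745 CPM at week 4, the last overlapping sham. The part of these cells and of the hair cycle in the members' differences was not tested.

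Control skin of radiated mice was also set against sham skin. At weeks 1, 2 and 3, 0 of 8 tested members were called by edgeR, beside 4.92%, 2.44% and 11.4% of all genes, and 0 by DESeq2, beside 16.4%, 10.7% and 19.8%. At an edgeR unadjusted p under 0.05 there were 1, 0 and 0, beside 27.3%, 21.1% and 29.7%. At week 4, 2 of 8 were called, beside 3.65%. Cd3d was at 14.6, 22.8 and 21.7 CPM in sham skin and lower in every control library of week 4, by -1.18 on the log2 scale (SE 0.18, edgeR adjusted p 0.0163). Trdc was at 1.41, 1.47 and 1.55 CPM in sham skin and higher in every control library of week 4, by 1.28 (SE 0.21, adjusted p 0.0207). Each call ended in leave-one-out fits: that of Trdc without any of the 4 controls or without sham replicate 2 or 3 (adjusted p 0.0517 to 0.0886), that of Cd3d without control replicate 2, 3 or 4 or sham replicate 3 (0.0552 to 0.0803). With the replicate number as a block, which joins no animals here either, 0 of 8 were called, beside 0.541%, and 4 had an unadjusted p under 0.05, beside 14.4%. Genes of the growing hair follicle differed between these groups as well, with a summed level of 2086 to 33150 CPM in sham and 25.9 to 37.8 CPM in control skin of week 4. Keratinocyte genes summed to 9266 to 18060 CPM in sham and 20990 to 23510 CPM in control skin. Fibroblast genes summed to 3461 to 8023 against 1703 to 3283 CPM, and macrophage sums overlapped (217 to 439 against 213 to 346 CPM). The part of these cells and of the hair cycle in these differences was not tested.

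Likeness across the 35 libraries was described by Pearson's r of log2 CPM among 16398 other genes whose mean level reached 1 CPM. The libraries share 9 groups and the same scaling, so r follows group differences. Nearest to Cd4 were Mmp14 (r = 0.947) and Bmp1 (0.931), a matrix metalloproteinase and a procollagen proteinase, Ms4a7 (0.928), which is known from macrophages, and the matrix protein gene Fbln2 (0.928). Nearest to Foxp3 was Il2ra (r = 0.893), the high-affinity interleukin-2 receptor chain known from regulatory T cells, then I830077J02Rik (0.883), the interleukin-21 receptor gene Il21r (0.855) and Ampd2 (0.851). Nearest to Trdc were Sh2d3c (r = 0.844), the interleukin-1 receptor accessory chain gene Il1rap (0.837), Gramd1a (0.806) and the endothelial and leukocyte adhesion gene Pecam1 (0.794). The mean of Cd3d, Cd3e and Cd3g had weaker neighbours: H2-Q4 (r = 0.669), Slc6a8 (0.624), Btbd11 (0.605), H2-Q6 (0.597), H2-Q7 (0.597), Ssh3 (0.595), Grap2 (0.588), an adaptor of receptor signalling, and Fnbp1 (0.585). The H2-Q genes are close copies, so reads may have been divided among them.

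The other genes of the T-cell pathways were read from lists chosen by function. By the unpaired edgeR test none was called at week 1 or 2 in any list. At week 2, with the mouse as a block, 3 of 17 receptor signalling genes and 2 of 17 surface and lineage factors were called, 1 of each list lower, along with 1 of 10 costimulatory and inhibitory receptors, 1 of 9 regulatory T-cell genes and 1 of 6 cytotoxic genes, all 3 higher, beside 3.7% of all genes. DESeq2 called 2 of 18 surface and lineage factors at week 1, 1 higher and 1 lower, beside 2.24% of all genes. At week 2 it called 2 of 17 signalling genes, 1 higher and 1 lower, and 1 of 16 surface and lineage factors, 1 of 10 costimulatory and inhibitory receptors and 1 of 6 cytotoxic genes, all 3 higher, beside 4.12%. Every list count that follows is set beside the 27.2% of all genes called at week 3 and the 48.4% called at week 4, and a share near these is not a result about the list. At week 3, the receptor signalling list had 8 of 17 tested genes called, 7 higher and 1 lower, with a median log2 fold change of 0.70 beside 0.08 for all genes. At week 4, 9 of 17 were called, 7 higher and 2 lower (median 0.21 beside 0.02), a share close to the 48.4% of all genes. Carmil2, a scaffold of costimulation, rose by 2.31 and 1.70 at the 2 weeks. Rhoh, a GTPase needed for receptor signalling, rose by 2.06 and 1.68. Lcp2, the adaptor SLP-76, which myeloid cells also use, rose by 2.62 at week 4 (49.5 ± 12.1 against 8.11 ± 0.19 CPM). Lck, the kinase that starts the signal, rose by 1.79 at week 3 (edgeR adjusted p 0.0364), and by 1.502 with an adjusted p of 0.0979 with the mouse as a block. Prkcq fell by 0.81 at week 3, and Rasgrp1 and Trat1 fell by 1.90 and 0.91 at week 4, so the list did not move one way.

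Most of the costimulatory and inhibitory receptors that were called were higher in radiated skin. Of 10 tested, 5 were called at week 3, all higher (median 1.43), and at week 4, 9 of 11 were called, 8 higher and 1 lower (median 1.42). Tnfrsf9, the costimulatory receptor 4-1BB, rose by 3.07 at week 3 and by 4.02 at week 4, where it was at 8.74 ± 2.60 against 0.546 ± 0.302 CPM. Pdcd1, the inhibitory receptor PD-1, rose by 3.57 and Icos, a costimulator of activated T cells, by 3.26 at week 4. Havcr2, the receptor TIM-3, rose by 2.10 at week 3 and is also made by myeloid cells. Cd96, a receptor of T and natural killer cells, fell by 1.89 at week 4.

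Genes tied to regulatory T cells other than Foxp3 were called in 5 of 9 at week 3 (4 higher, 1 lower, median 1.05) and in 8 of 9 at week 4 (5 higher, 3 lower, median 1.08). With the mouse as a block the week 3 count was 3, beside 21.1% of all genes in that fit. Il2ra rose by 1.39 at week 3. Il10, an anti-inflammatory cytokine, rose by 2.94 at week 4, and Lrrc32, which holds latent TGF-beta at the cell surface and is also found on other cells, rose by 2.68. Areg, a growth factor that keratinocytes also make, rose by 1.84 and 2.22. Ikzf2, which encodes Helios, fell by 1.24 and 2.06, and Tnfrsf18, the receptor GITR, fell by 0.84 at week 4.

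Surface and lineage factors were called in 11 of 18 at both weeks, beside 27.2% and 48.4% of all genes: 8 higher and 3 lower at week 3 (median 0.72) and 7 higher and 4 lower at week 4 (median 0.26). Cd6, a T-cell surface receptor, rose by 3.64 and 2.17, and Ikzf3, which encodes Aiolos, by 2.66 and 1.74. Runx3, a factor of CD8 and epidermal T cells, rose by 2.49 and 1.71. Gata3 fell by 1.90 and 2.95, from 1156 ± 102 to 149 ± 72.1 CPM at week 4, and Satb1 fell by 1.18 and 1.57. Gata3 and Satb1 are also made by skin epithelium, and the keratinocyte sums given beside Cd3e were lower in radiated skin of week 4. At week 3 these sums overlapped, at 13780 to 18680 CPM in control and 5656 to 23900 CPM in radiated skin. The part of epithelium in these falls was not tested.

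Cytotoxic lymphocyte genes were called in 3 of 9 at each week, all higher (medians 1.05 and 0.58), a share near the 27.2% of all genes at week 3 and under the 48.4% at week 4. Gzmb, the protease granzyme B, rose by 3.19 and 3.45 and reached 4.81 ± 2.77 CPM at week 3, and Eomes, a factor of cytotoxic cells, rose by 2.01 at week 3. Gamma-delta and type 17 genes were called in 2 of 8 at week 3 (1 higher, 1 lower, median 0.49) and in 4 of 9 at week 4 (3 higher, 1 lower, median 0.60), again near the share of all genes. Cd163l1, a receptor of gamma-delta T cells, rose by 1.54 at week 3. Skin homing and residency genes were called in 7 of 11 (6 higher, 1 lower, median 1.08) and 8 of 12 (6 higher, 2 lower, median 0.71). Ccr7, which guides lymphocytes to lymph nodes, rose by 3.75 at week 3 and by 4.70 at week 4, whereas Ccr4, a skin-homing receptor, fell by 1.89 and 2.88.

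**Figure D4:**
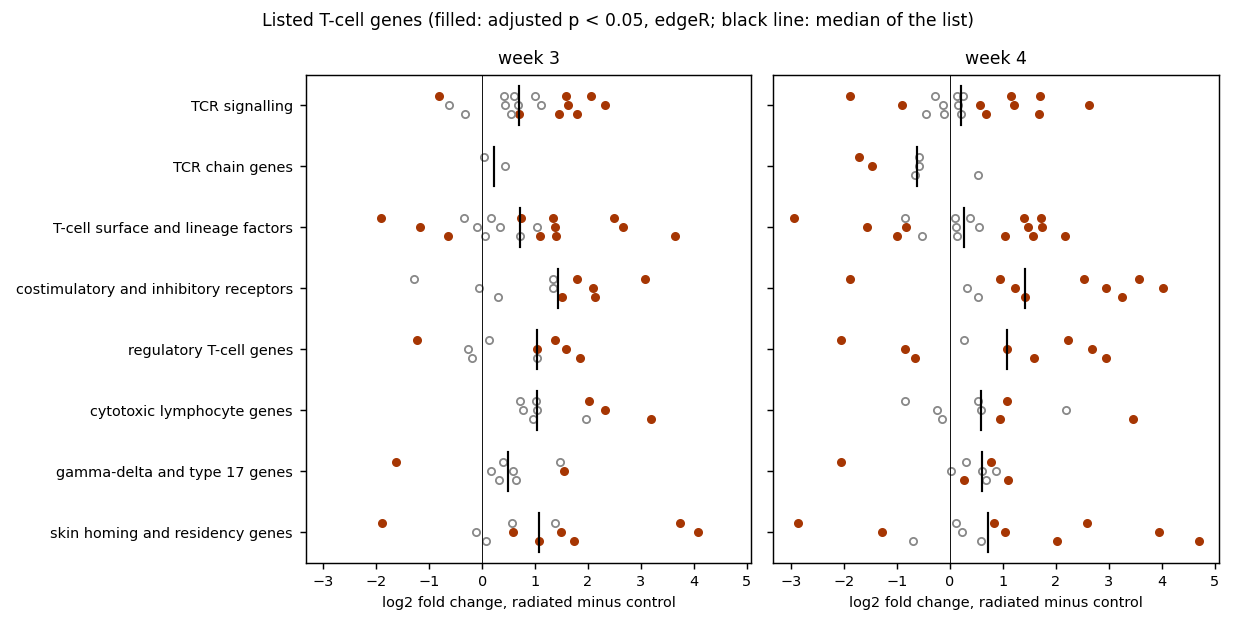
Log2 fold changes of radiated minus control skin for the genes of 8 T-cell lists at weeks 3 and 4; each circle is a gene that passed the low-count filter, filled where called at an adjusted p under 0.05 by edgeR, and the black line is the median of the list. Costimulatory and inhibitory receptors have medians of 1.43 and 1.42, and the receptor chain genes of week 4 a median of -0.63.

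Markers of other lymphoid, myeloid and antigen-presenting cells were read in the same libraries, beside the 27.2% and 48.4% of all genes called at weeks 3 and 4. Of the natural killer and innate lymphoid genes, 1 of 4 tested was called higher at week 3 and 2 of 5 at week 4, shares no higher than those of all genes, and the 6 summed to 189 to 419 CPM in radiated and 13.4 to 16.4 CPM in control skin of week 4. Ncr1, the natural killer receptor NKp46, rose by 2.89 at week 4 (edgeR adjusted p 0.00486), and Il1rl1, the interleukin-33 receptor of innate lymphoid and mast cells, rose by 4.98. Il1rl1 alone, at 180 to 410 CPM in radiated and 6.24 to 9.52 CPM in control skin of week 4, made up most of that sum, while Ncr1 stayed at or under 1.05 CPM. B-cell and lymph node genes were called in 2 of 5 and 3 of 6, all higher and at week 4 near the share of all genes. For these genes the week 3 count was 1 with the mouse as a block, beside 21.1% of all genes. Their sums overlapped, at 23.6 to 46.9 CPM in radiated and 13.1 to 28.1 CPM in control skin of week 4. The 6 neutrophil genes summed to 205 to 436 CPM in radiated and 10.2 to 14.4 CPM in control skin of week 4, where 1 of them was at 0 in every control library, and 5 of 5 tested were called higher at both weeks. Of the 8 Langerhans and dendritic genes, 4 were called at each week, 3 higher and 1 lower (medians 0.79 and 0.23). Their sums overlapped, at 305 to 1142 CPM in radiated and 294 to 417 CPM in control skin of week 3 and at 245 to 348 against 241 to 276 CPM at week 4. The 1 that fell was Cd207, the Langerhans cell lectin, by 2.68 and 2.97. Apart from that neutrophil gene, no gene of these lists was at 0 in every library of a week 3 or week 4 group. The part of these cells in the shared genes was not tested.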

How the data were processed

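Total RNA from 35 skin biopsies (RNeasy mini-kit, RNAlater) was sequenced at Azenta (GENEWIZ), per the labels' protocols. The deposited gene table holds kallisto estimated counts, per the labels' protocols; the submitters' processing notes name Trim Galore 0.6.7, kallisto 0.46.2 and mm10. The step from transcripts to genes and the strand setting are not given in the sources used here. Estimated counts were rounded to whole numbers; 7468 of 36106 genes were at 0 throughout. None of 595 library pairs was identical, and the lowest reduced chi-square between libraries of 1 group was 21.27.

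Groups came from sample titles. edgeR 4.0.16 (R 4.3.3) was run as the quasi-likelihood F test with TMM scaling and its default expression filter, each comparison on its own 2 groups; the interaction used 32 libraries. SE is the log2 fold change over the root of F. CPM used TMM-scaled library sizes, and log2 CPM a prior count of 2. Ratios used scipy 1.17.1. Depth limits low genes, counting error only: Cd8b1 had at most 3 counts in 19 of 35 libraries. Scripts were tested on simulated data.

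Radiated and control libraries of 1 number and week were taken as 1 mouse, from their library names and 35 samples from 19 mice. Over 19813 genes, the mean correlation of deviations of same-numbered libraries was 0.071, 0.17, 0.053 and -0.02 at weeks 1 to 4, and of other pairs -0.024, -0.057, -0.017 and 0.0074. Alternatives were DESeq2 size factors, total-count scaling, DESeq2 1.42.0, no filter, the replicate block, 1 fit of 35 libraries, other pseudocounts and leaving out each library. For the interaction and the steps between weeks, all libraries of 1 replicate number were left out together.

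The members and lists were chosen with earlier results of these data known. All 10 members are named; list genes are named where called in radiated against control skin (up to 3 largest rises and 3 largest falls of a list and week, with a mean of at least 0.5 CPM) or as defining markers; for likeness, the 8 highest r for the CD3 mean and the 4 highest for each of Trdc, Foxp3 and Cd4. Trbc2, Trgc2, Trdj1 and genes sharing exons with members were named after their values were seen. Ccl19 and Ccl21a, with several rows each, and Fyb1 were not analysed here. Some list genes that meet the naming rule are not reported here.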

Additional observations from a re-analysis of the deposited data

Results flagged for a closer look

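Within 80 sets of a member and a group of 4 libraries, 9 held 1 library far from the other 3. The gap was more than 0.829 of the set's whole range. For normally spread values chance gives about 1 in 20, and that rate was not checked for counts as low as some of these. Cd4 was at 38.84 CPM in radiated replicate 3 of week 3, with the others at 11.02 to 12.84 CPM, and at 5.459 CPM in control replicate 1 of week 2, with the others at 2.881 to 3.127 CPM. Cd3e was at 4.398 CPM in radiated replicate 3 of week 4, with the others at 6.632 to 6.743 CPM. Cd8a was at 5.238 CPM in control replicate 1 of week 4, at 2.097 CPM in radiated replicate 4 of week 1 and at 2.681 CPM in radiated replicate 3 of week 4. Trac was at 4.113 CPM in radiated replicate 1 of week 2, with the others at 0.4091 to 0.4965 CPM. Cd8b1 was at 0.09499 CPM (2 counts) in control replicate 2 of week 1 and at 0.3648 CPM (7 counts) in control replicate 4 of week 2. In both groups the other libraries had 0 counts, so any count in the last library would have been flagged.

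The radiated minus control difference of Cd4 changed across the weeks, by edgeR's interaction test with an adjusted p of 0.006254 over 32 libraries; without the libraries numbered 1 it was 0.05354.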

How the results depend on the processing

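Cd4 and Foxp3 (weeks 3 and 4) and Cd3e (week 4), radiated against control, kept direction and call in all 14 alternatives. With 1 fit of 35 libraries, 3 members were called at week 4 against control (the calls of Trdc and Trac were lost). That fit called 1 and 2 against sham at weeks 2 and 4, and 0 for control against sham at week 4. The share of all genes called in that fit is not given here, so its counts are not results about the members. The replicate block gave 2 for radiated and 0 for control against sham at week 4, where the number joins no animals; against control it ended the calls of Trdc at week 3 and Trac at week 4 and no other. The interaction had 2 calls with total-count scaling and 2 with DESeq2's likelihood ratio test (in place of the Wald test, which takes 1 contrast). The share of all genes called is not given here for these 2 settings, so the counts are not results about the members. DESeq2 called 1 member in the step from week 2 to 3, beside 10.2% of all genes. The cause was not tested.

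The block called 641 genes at week 2 in place of 1. With sign flips within mice as the replicate block, whose smallest p with 4 pairs is 0.125, no ratio passed, and adjusted over 6 ratios (added after seeing the data) those of week 3 to Cd3e and Cd8a to Cd4 at week 4 did not either (0.0571): Foxp3 to Cd3e 2.015 and 2.319, Cd4 to Cd3e 2.175 and 4.106 (weeks 3 and 4), Cd8a to Cd4 -2.794 (week 4). Trdc to Trac at week 4 was 0.2436 with a pseudocount of 0.5. Cd8a at week 2 was 0.02695 with total-count scaling and 0.01545 with the block.

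Leaving out 1 library gave 0 to 3 calls (week 3) and 2 to 5 (week 4) for radiated against sham. For control against sham at week 4 it gave 0 to 2. Leaving out all libraries of 1 replicate number gave 0 to 2 for the interaction and 0 to 1 for the step from week 2 to 3. The share of all genes called in these fits is not given here, so these counts are not results about the members. With 1 library left out, Foxp3 to Cd3e ranged from 1.669 to 2.244 and 2.161 to 2.498 at weeks 3 and 4. Cd4 to Cd3e ranged from 1.793 to 2.488 and 3.917 to 4.272 at these weeks. At week 4 Cd8a to Cd4 ranged from -2.972 to -2.467 and Trdc to Trac from -0.4044 to 0.3423. With 3 against 4 libraries no ratio can pass. Uncalled members that changed sign had log2 fold changes of -0.2207 to 0.3694 (Cd3g, week 1), -0.1783 to 0.1882 (Cd3d, week 2), -0.4011 to 0.1981 (Cd3e, week 2), -0.2007 to 0.07292 (Cd8a, week 2), -0.4359 to 0.1135 (Trdc, week 2), -0.06131 to 0.1587 (Cd247, week 2), -0.2198 to 0.5647 (Cd3d, week 3), -0.1207 to 0.312 (Cd247, week 3) and -0.06491 to 0.3576 (Cd8a, week 4). Low counts limit Trac and Cd8b1.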
